A study of Homo sapiens with 12 samples.

Results

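The miR-17-92 cluster is a polycistronic microRNA locus, and 8 of its mature arms were followed here by name: hsa-miR-17-5p, hsa-miR-17-3p, hsa-miR-18a-5p, hsa-miR-18a-3p, hsa-miR-19a-3p, hsa-miR-19b-3p, hsa-miR-20a-5p and hsa-miR-92a-3p. They are 8 of the 1204 mature miRNAs counted in the series, and all 8 passed the filter on low counts that kept 659 miRNAs for testing. They were measured by small RNA sequencing of MV4-11 and Molm-14, a pair of human acute myeloid leukemia (AML) lines with an internal tandem duplication in FLT3. In each line, cells in which MPC1 had been deleted (MPC1 KO) were compared with cells that carried a nontargeting Empty Vector (EV), with 3 libraries in each of the 4 groups and 12 in all. MPC1 is needed for the carrier that brings pyruvate into mitochondria, and the MPC1 KO cells were made with a lentiviral CRISPR/Cas9 construct that held a GFP marker and 1 guide against MPC1. Neither the labels nor the methods say whether the KO cells were 1 clone or whether replicates were grown apart, so p-values measure only the spread between these libraries, which may be technical. Small RNA libraries do not measure the MPC1 mRNA, and the loss of MPC1 was not checked here.

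The cluster is transcribed as 1 primary RNA from which Drosha and Dicer cut a hairpin for each miRNA. Each hairpin can give a 5p and a 3p arm, and one of them is usually kept in the silencing complex while the other is degraded. The cluster is a MYC target, is amplified or overexpressed in lymphomas and other tumors, and its miRNAs repress BIM and CDKN1A among other targets, which gave it the name oncomiR-1. In blood it is high in progenitors and falls as myeloid cells mature.

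The 6 hairpins lie on the plus strand of chromosome 13 in GRCh38 and span 787 bases, from the start of MIR17 at 91350605 to the end of MIR92A1 at 91351391. In 5′ to 3′ order they are MIR17, MIR18A, MIR19A, MIR20A, MIR19B1 and MIR92A1, and the gaps between neighbors were between 35 and 92 bases. All 6 lie within MIR17HG (chromosome 13 from 91347686 to 91397592), and each hairpin was exonic in 3 and intronic in 8 of its 16 annotated transcripts. The mature sequences below, from RefSeq on GRCh38.p14, show which arms can share targets, because a miRNA recognises its targets mainly through its seed. They are written 5′ to 3′ and the capitals mark the seed, bases 2 to 8.
hsa-miR-17-5p: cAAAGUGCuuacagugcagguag
hsa-miR-20a-5p: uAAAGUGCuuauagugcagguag
hsa-miR-18a-5p: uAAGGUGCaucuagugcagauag
hsa-miR-19a-3p: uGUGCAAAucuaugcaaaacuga
hsa-miR-19b-3p: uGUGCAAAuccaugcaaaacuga
hsa-miR-92a-3p: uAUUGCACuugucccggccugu
hsa-miR-17-3p: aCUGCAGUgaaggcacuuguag
hsa-miR-18a-3p: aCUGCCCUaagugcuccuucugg

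The sequences fell into 6 seeds. hsa-miR-17-5p and hsa-miR-20a-5p shared 1 seed and differed outside it by C1U and C12U (the base of hsa-miR-17-5p first, positions counted from its 5′ end). hsa-miR-19a-3p and hsa-miR-19b-3p shared another and differed only by U11C, with the base of hsa-miR-19a-3p first. The mature sequences of 6 arms each matched the genome at 1 place. Those of hsa-miR-19b-3p and hsa-miR-92a-3p each matched at 2 places, because MIR19B2 and MIR92A2 in the paralogous miR-106a-363 cluster on chromosome X encode the same mature sequences. The X copy of hsa-miR-19b-3p lies at chrX:134169683-134169705 and that of hsa-miR-92a-3p at chrX:134169544-134169565, both on the minus strand. A count of these arms therefore does not separate the loci, and how reads matching several places were counted is not given in the sources used here.

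The total count was between 3870104 and 8683456 per library. All 5 markers of myeloid and blood cells were counted in the 12 libraries, and they summed to between 66214 and 79249 CPM in MV4-11 EV, 68143 and 70819 in MV4-11 KO, 81536 and 87691 for Molm-14 EV and 97628 and 106018 for Molm-14 KO. CPM are counts scaled to a common library size, here with TMM factors that correct for library composition. hsa-miR-142-3p and hsa-miR-155-5p gave most of this sum, whereas hsa-miR-150-5p, a lymphoid miRNA, was the lowest of the 5. Of 7 markers of other cell types, 6 were in the data and summed to between 628 and 737 CPM in MV4-11 EV, 521 and 602 in MV4-11 KO, 186 and 213 for Molm-14 EV and 109.7 and 118 for Molm-14 KO, most of it from the mesenchymal miRNA hsa-miR-143-3p. Both sums thus moved with the line and with the deletion in Molm-14, the second also with the deletion in MV4-11, and their part in the results below was not tested. Members of the first sum did not move together between the lines. From MV4-11 EV to Molm-14 EV, mean hsa-miR-142-3p rose from 21200 to 42564 CPM, hsa-miR-142-5p from 7331 to 11467 and hsa-miR-150-5p from 2.06 to 2.89. Mean hsa-miR-155-5p fell from 39208 to 27756 CPM and hsa-miR-223-3p from 3251 to 2733. The erythroid hsa-miR-451a and hsa-miR-144-3p, the hepatic hsa-miR-122-5p and the neuronal hsa-miR-124-3p never passed 9.58 CPM. Within a group, replicates differed by more than counting noise (chi-square per degree of freedom between 13.7 and 189), and the largest value belonged to Molm-14 EV replicates 1 and 2.

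The 8 arms together were an abundant part of these libraries, and about 2 times as abundant in Molm-14 as in MV4-11. In MV4-11 EV the summed level was 48225, 44593 and 37624 CPM in replicates 1, 2 and 3, which was 4.36% ± 0.300 (SD, n = 3) of all counts. In MV4-11 KO it was 35812, 34295 and 43307 CPM, or 3.99% ± 0.482 (SD, n = 3). In Molm-14 EV it was 90763, 71477 and 90548 CPM, or 8.09% ± 1.01 (SD, n = 3), and in Molm-14 KO 91336, 89767 and 94652 CPM, or 9.004% ± 0.496 (SD, n = 3). Every Molm-14 library lay above every MV4-11 library, while KO and EV libraries overlapped in each line. Over both genotypes the summed level was 2.18-fold higher in Molm-14 (log2 difference 1.12, exact two-sided permutation test over 400 assignments within genotypes, p = 0.005, the smallest it can give). For MPC1 KO against EV the log2 difference of the summed level was -0.20 in MV4-11 (exact permutation p = 0.2) and 0.13 in Molm-14 (p = 0.4), with 20 assignments in each line and a smallest possible p of 0.1. Over both lines it was -0.03 (exact permutation p = 0.69). Molm-14 EV replicate 2 was the lowest Molm-14 library, and without it the KO difference in Molm-14 was 0.02. In bulk libraries fewer cells of a type and less RNA per cell cannot be told apart.

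The arms differed widely in level, although 1 primary transcript carries all of them. All 8 arms are 22 or 23 bases long, so length does not separate their CPM, but how well each sequence is captured in a library was not tested, and the shares below are shares of counts. In the mean of the 12 libraries, hsa-miR-20a-5p made up 52.3% ± 2.24 (SD, n = 12) of the counts of the 8 arms and hsa-miR-17-5p, its seed partner, 33.6% ± 0.639. Together they held 85.9% ± 1.84 (SD, n = 12). hsa-miR-92a-3p, from the last hairpin, held 7.45% ± 1.16, and hsa-miR-19a-3p 3.48% ± 0.619. hsa-miR-18a-5p held 1.997% ± 0.248, and the arms hsa-miR-18a-3p and hsa-miR-17-3p 0.800% ± 0.118 and 0.345% ± 0.0623. hsa-miR-19b-3p was the lowest of the 8, at 0.0663% ± 0.0300 (SD, n = 12) and between 65 and 479 counts in a library. Among all miRNAs, ordered by mean CPM in Molm-14 EV, hsa-miR-20a-5p ranked 6, hsa-miR-17-5p 10, hsa-miR-92a-3p 26 and hsa-miR-19b-3p 190.

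**Figure D1:**
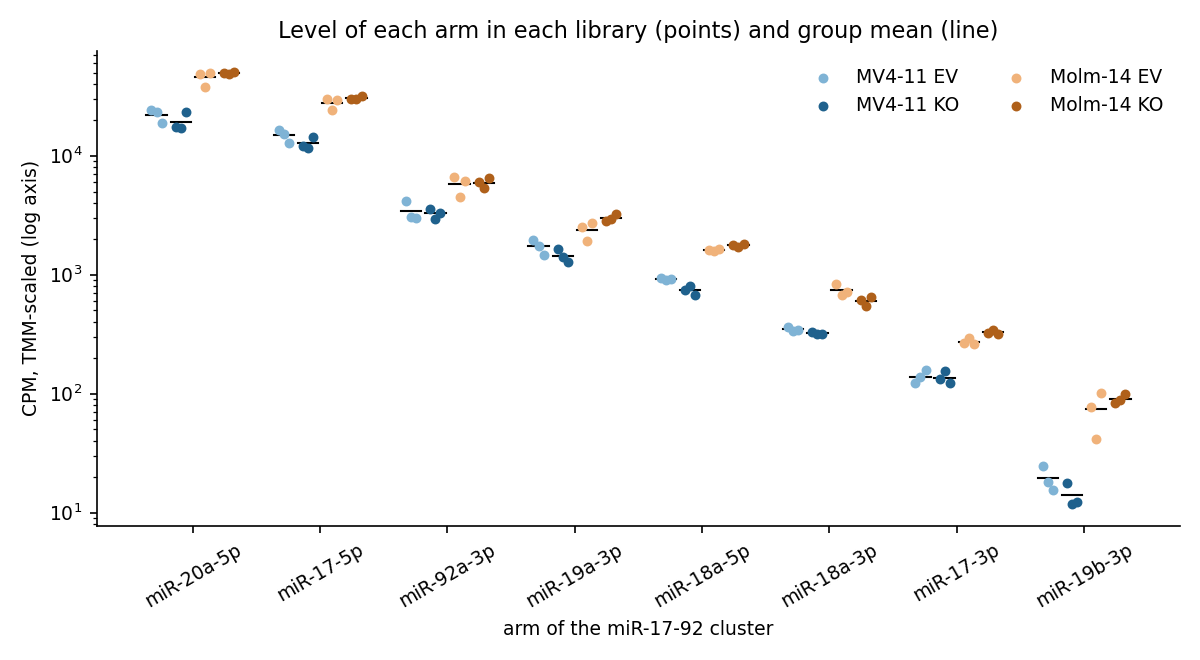
Level of each of the 8 arms in each library, in CPM on a log axis, with the mean of each group as a line and the arms ordered by level. hsa-miR-20a-5p and hsa-miR-17-5p led in all 12 libraries, hsa-miR-19b-3p was lowest in all 12, and the Molm-14 libraries of each arm lay above the MV4-11 libraries except for hsa-miR-19a-3p, where 1 Molm-14 EV library at 1917 CPM lay below 1 MV4-11 EV library at 1972 CPM.

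The arms kept from each hairpin differed along the cluster. The other 4 arms of the same hairpins, which were not among the 8, were counted as well and allowed the balance of each hairpin to be given. In MIR17 the 5p arm made up 99.0% ± 0.174 (SD, n = 12) of the counts of both arms, and in MIR20A 99.8% ± 0.0255. MIR18A kept more of both arms, with 71.4% ± 2.74 from the 5p arm. MIR19A was kept as its 3p arm, with 0.131% ± 0.0435 (SD, n = 12) of the counts from the 5p arm. For MIR92A1 the 5p arm made up 8.54% ± 0.867 (SD, n = 12) of the counts. Counts of hsa-miR-92a-3p do not separate MIR92A1 from its X copy, so the balance of MIR92A1 alone was not measured.

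MIR19B1 stood apart from its neighbor MIR19A, whose 3p arm differs from it in 1 base. Both arms of MIR19B1 were low by counts, and its 5p arm, hsa-miR-19b-1-5p, made up 55.7% ± 10.5 (SD, n = 12) of their counts. The 3p counts do not separate MIR19B1 from its X copy, so the balance of MIR19B1 alone was not measured. The leading arm differed by line, with 61.1% and 65.6% from the 5p arm in MV4-11 EV and KO and 49.9% and 46.1% in Molm-14. The 3p arm was the lower one in all 6 MV4-11 libraries and the higher one in 5 of 6 Molm-14 libraries, the exception being EV replicate 2. hsa-miR-19a-3p exceeded hsa-miR-19a-5p by 847-fold ± 279 (SD, n = 12), whereas hsa-miR-19b-3p was 0.858-fold ± 0.366 of hsa-miR-19b-1-5p. The ratio of hsa-miR-19b-3p to hsa-miR-19a-3p was 0.0112 ± 0.00125 in MV4-11 EV, 0.00961 ± 0.00123 in MV4-11 KO, 0.0302 ± 0.00807 for Molm-14 EV and 0.0299 ± 0.000546 for Molm-14 KO (SD, n = 3 each). hsa-miR-19b-3p has 2 genomic copies and hsa-miR-19a-3p has 1. hsa-miR-92a-3p also has 2 copies, and it exceeded its own 5p arm hsa-miR-92a-1-5p by 10.8-fold ± 1.20 (SD, n = 12). Over all hairpins in which an arm with several copies faced an arm with 1 copy, and either reached 1 CPM, the arm with several copies was the lower one in 16 of 30. In MIR128-2, MIR30C2 and MIR92A2 the arm with 1 copy was at 0 CPM and could not be the higher one. The sizes varied: hsa-miR-181a-5p was at 0.518 CPM beside 910 for hsa-miR-181a-3p, and hsa-miR-16-5p at 22.0 beside 2231 for hsa-miR-16-2-3p. In the other direction, hsa-miR-128-3p was at 2627 CPM beside 65.1 for hsa-miR-128-1-5p (means of the 12 libraries). The part that the counting of reads with several matches plays in the low value of hsa-miR-19b-3p was not tested.

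**Figure D2:**
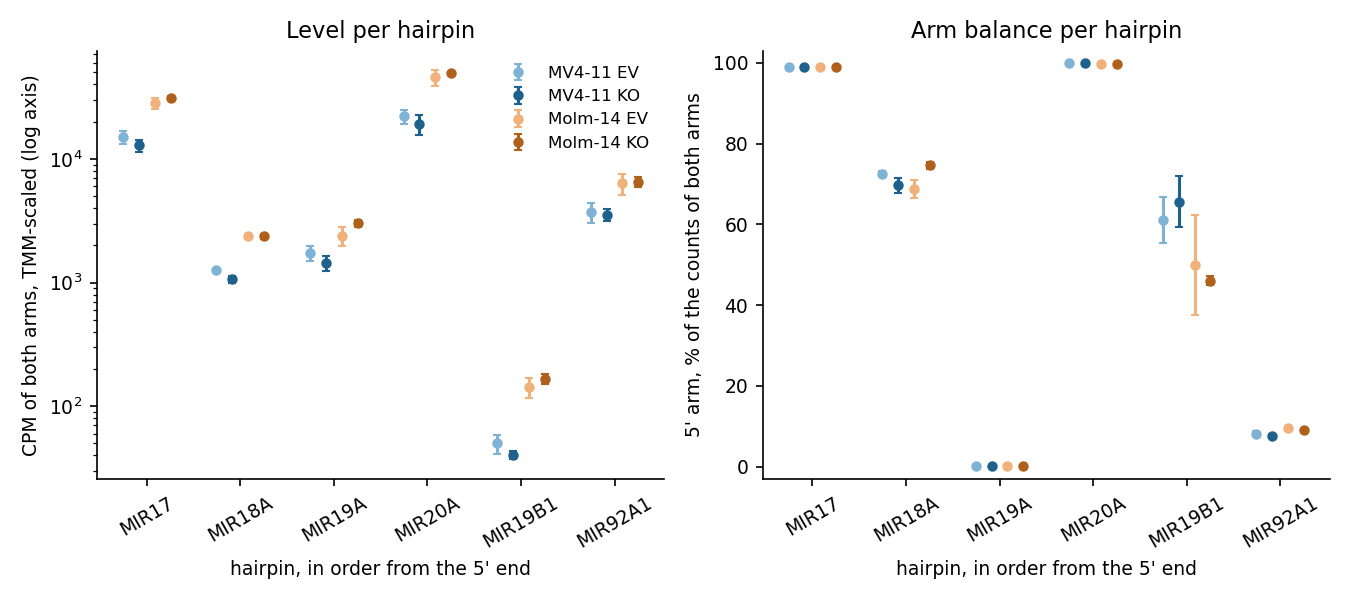
For each of the 6 hairpins in genomic order, the left panel plots the summed CPM of both arms on a log axis and the right panel the share of the 5p arm in percent, as mean and SD of 3 libraries per group. By counts, MIR17 and MIR20A were almost wholly 5p, MIR19A almost wholly 3p and MIR92A1 mostly 3p, and MIR19B1 was lowest and near balance. Counts of the 3p arms of MIR19B1 and MIR92A1 do not separate these hairpins from their X copies.

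Without the deletion, each of the 8 arms was higher in Molm-14 than in MV4-11. All 8 arms passed the test of Molm-14 EV against MV4-11 EV (edgeR's quasi-likelihood test, adjusted over the 659 miRNAs, threshold 0.05), all in the same direction, where 33.5% of all miRNAs tested were called higher and 61.9% were called in either direction. The median log2 fold change of the 8 arms was 0.94, against 0.06 for all miRNAs tested. The libraries of the EV groups did not overlap for 7 of the 8, beside 34.9% of all miRNAs whose Molm-14 EV libraries all lay above. Taking KO libraries along, the 6 Molm-14 libraries lay above the 6 MV4-11 libraries for the same 7 arms, beside 26.9% of all miRNAs.

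For the pair that shares a seed, hsa-miR-20a-5p was at 24179.7, 23146 and 18834 CPM in MV4-11 EV and at 48865, 38031 and 49655 CPM in Molm-14 EV. hsa-miR-17-5p was at 16474, 15268 and 12856 CPM and at 30001, 24463 and 29337 CPM in the same groups. The groups did not overlap for either arm, and Molm-14 EV replicate 2 was the lowest Molm-14 EV library for both. The log2 fold change was 1.05 (SE 0.13, adjusted p = 1.78e-07) for hsa-miR-20a-5p and 0.91 (SE 0.11, adjusted p = 1.48e-07) for hsa-miR-17-5p by edgeR's quasi-likelihood test. In the ratio of hsa-miR-17-5p to hsa-miR-20a-5p the lines were at 0.674 ± 0.0129 in MV4-11 EV and 0.616 ± 0.0263 in Molm-14 EV (SD, n = 3 each), and at 0.669 ± 0.0417 and 0.614 ± 0.0175 in the KO groups. Over both genotypes the ratio was 0.916-fold as high in Molm-14 (exact permutation p = 0.01, adjusted p = 0.07 over 14 comparisons of ratios), which did not pass the correction.

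hsa-miR-19b-3p showed the largest fold between the lines among the 8 arms and hsa-miR-19a-3p the smallest. hsa-miR-19b-3p was at 24.8, 17.9 and 15.6 CPM in MV4-11 EV and at 77.8, 41.6 and 102 CPM in Molm-14 EV, with a log2 fold change of 1.90 (SE 0.30, edgeR adjusted p = 0.000134). hsa-miR-19a-3p was at 1972, 1732 and 1475 CPM in MV4-11 EV and at 2515, 1917 and 2697 CPM in Molm-14 EV, and these groups overlapped. Its log2 fold change was 0.46 (SE 0.13, edgeR adjusted p = 0.00308), and it was 0.29 (adjusted p = 0.0784) when libraries were scaled by their upper quartile. The X-linked miR-106a-363 cluster holds the other copy of hsa-miR-19b-3p and hsa-miR-92a-3p. Its 3 tested arms were called higher in Molm-14 EV, beside 33.5% of all miRNAs tested. The log2 fold change was 1.27 (SE 0.21) for hsa-miR-106a-5p, 0.74 (SE 0.17) for hsa-miR-20b-5p and 3.76 (SE 0.34) for hsa-miR-363-3p. These arms stayed at or below 55.6 CPM in every library. With 4 to 6 counts in MV4-11 EV and 41 to 68 in Molm-14 EV, hsa-miR-363-3p passed the filter on low counts only through Molm-14, so its call is no separate evidence. hsa-miR-18b-5p of this cluster did not pass the filter, and its mean was 1.01 CPM in MV4-11 EV and 0.97 in Molm-14 EV. The loci that gave the counts of hsa-miR-19b-3p and hsa-miR-92a-3p were not separated here.

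The remaining arms were also higher in Molm-14 EV. The log2 fold change was 1.08 (SE 0.10) for hsa-miR-18a-3p, 0.98 (SE 0.11) for hsa-miR-17-3p, 0.82 (SE 0.09) for hsa-miR-18a-5p and 0.75 (SE 0.14) for hsa-miR-92a-3p, with edgeR adjusted p-values of at most 0.000109. hsa-miR-18a-5p, which shares its seed with hsa-miR-18b-5p of the X cluster, held between 99.8% and 99.9% of the CPM of that seed in the group means. Of the 4 other arms of the hairpins, 3 were also higher, hsa-miR-20a-3p by 1.41 (SE 0.13), hsa-miR-19b-1-5p by 1.18 (SE 0.15) and hsa-miR-92a-1-5p by 0.99 (SE 0.13). hsa-miR-19a-5p, with between 8 and 25 counts in a library, was at 0.08 (SE 0.38, edgeR adjusted p = 0.862).

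The share of an arm within the cluster, taken as its count over the geometric mean count of the 8 arms, does not depend on how libraries are scaled. Between the lines, 3 of the 8 shares passed the test (exact permutation test over 400 assignments, adjusted over 16 comparisons of shares). The share of hsa-miR-19b-3p was 2.18-fold higher in Molm-14, that of hsa-miR-19a-3p 0.757-fold and that of hsa-miR-92a-3p 0.780-fold as high (exact permutation p = 0.005 for each, the smallest possible, adjusted p = 0.0267). The shares of the other 5 arms differed by between 0.886-fold and 1.04-fold, with adjusted p-values of 0.347 or more. With the geometric mean taken over the 6 arms that have 1 copy, the difference in the share of hsa-miR-19a-3p was -0.27 on the log2 scale (exact permutation p = 0.02, adjusted p = 0.24), and 0 of the 6 passed. Without MV4-11 EV replicate 1 or replicate 3, 0 of the 8 passed. The percent of the cluster's counts, as a description, was 3.96 ± 0.109 in MV4-11 EV and 2.81 ± 0.152 in Molm-14 EV for hsa-miR-19a-3p (SD, n = 3 each), and 7.83 ± 0.897 and 6.76 ± 0.497 for hsa-miR-92a-3p.

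After deletion of MPC1, no arm of the cluster passed the test in either line. The question was whether a block in pyruvate entry into mitochondria changes these miRNAs. In MV4-11, 0 of 8 arms passed (edgeR), beside 3.03% of all miRNAs tested. All 8 fitted log2 fold changes were below 0, with a median of -0.21 against -0.00 for all miRNAs, of which 48.6% were above 0. Unadjusted, 2 of the 8 had p below 0.05, beside 14% of all miRNAs tested. By DESeq2, 1 of the 8 passed. Scaled by total counts alone, hsa-miR-17-3p and hsa-miR-92a-3p were above 0, at 0.045 and 0.017.

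In Molm-14, 0 of 8 arms passed as well, beside 6.83% of all miRNAs tested. There 7 of the 8 log2 fold changes were above 0 and 1 was below, with a median of 0.13 against -0.01 for all miRNAs, of which 47.5% were above 0. Unadjusted, 3 of the 8 had p below 0.05, beside 19.4% of all miRNAs tested, and DESeq2 called 0 of 8. Both comparisons were made with the same 12 libraries in 1 fit, but with separate controls.

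**Figure D3:**
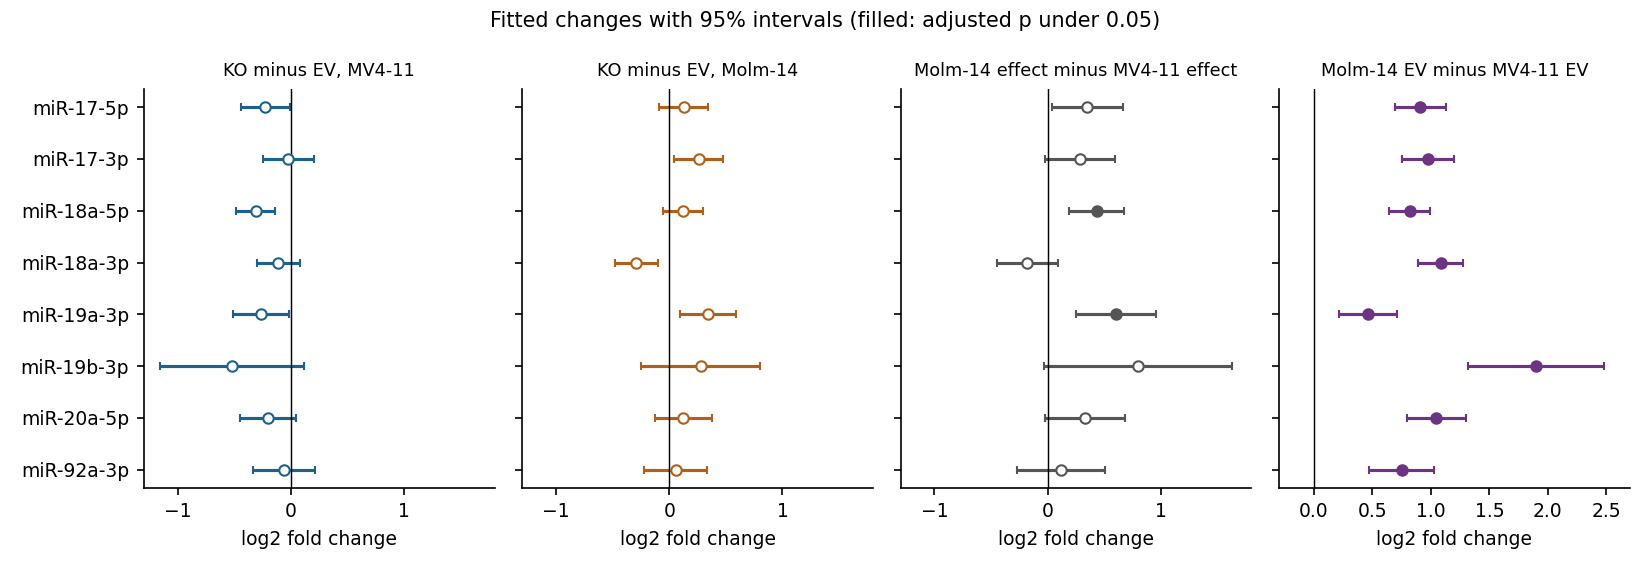
Fitted log2 fold changes of the 8 arms with 95% intervals by a normal approximation, in 4 panels. The panels hold MPC1 KO against EV in MV4-11 and in Molm-14, the difference between these effects, and Molm-14 EV against MV4-11 EV. Filled points passed an adjusted p of 0.05: none in either KO panel, hsa-miR-18a-5p and hsa-miR-19a-3p in the difference, and all 8 between the EV controls.

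hsa-miR-18a-5p came closest to the threshold in MV4-11. It was at 933, 897 and 925 CPM in MV4-11 EV and at 738, 807 and 676 CPM in MV4-11 KO, so that every KO library lay below every EV library, as for 7.13% of all miRNAs tested. The log2 fold change was -0.31 (SE 0.09, 95% interval -0.49 to -0.14, edgeR adjusted p = 0.0599). Under DESeq2, under upper-quartile scaling, with TMM factors computed without the 3 related clusters and with a stricter filter on low counts it passed, with adjusted p-values between 0.0108 and 0.0356. In Molm-14 it was at 1626, 1583 and 1653 CPM in EV and at 1778, 1694 and 1818 CPM in KO. There every KO library lay above every EV library, as for 12.3% of all miRNAs tested, and the log2 fold change was 0.12 (SE 0.09, 95% interval -0.05 to 0.29, edgeR adjusted p = 0.510).

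hsa-miR-18a-3p, the other arm of the same hairpin, was lower in the KO libraries of both lines without passing the test. It was at 364, 337 and 342 CPM in MV4-11 EV and at 331, 319 and 316 CPM in MV4-11 KO (log2 fold change -0.11, SE 0.10, edgeR adjusted p = 0.678). In Molm-14 it was at 828, 673 and 708 CPM in EV and at 614, 549 and 643 CPM in KO (log2 fold change -0.29, SE 0.10, 95% interval -0.48 to -0.10, edgeR adjusted p = 0.0687). The groups did not overlap in either line, as for 7.13% of all miRNAs below in MV4-11 KO and 14.9% in Molm-14 KO. The ratio of hsa-miR-18a-5p to hsa-miR-18a-3p was 2.64 ± 0.0716 in MV4-11 EV, 2.30 ± 0.207 in MV4-11 KO, 2.22 ± 0.219 for Molm-14 EV and 2.94 ± 0.134 for Molm-14 KO (SD, n = 3 each). The KO ratio was thus 0.868-fold that of EV in MV4-11 and 1.33-fold in Molm-14, without overlap between groups in either line, and both gave the exact permutation p of 0.1 that is the smallest for 3 against 3 libraries. Over both lines the ratio differed by 1.07-fold (exact permutation p = 0.41, adjusted p = 0.793).

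hsa-miR-19a-3p was at 1641, 1408 and 1267 CPM in MV4-11 KO, which overlapped with the EV values given above (log2 fold change -0.26, SE 0.13, 95% interval -0.51 to -0.02, edgeR adjusted p = 0.356). In Molm-14 KO it was at 2843, 2935 and 3244 CPM, above every EV library, as for 12.3% of all miRNAs tested (log2 fold change 0.34, SE 0.13, 95% interval 0.09 to 0.59, edgeR adjusted p = 0.108). The lowest of these EV libraries was replicate 2. hsa-miR-19b-3p, with the same seed, was at 17.7, 11.7 and 12.4 CPM in MV4-11 KO and at 83.4, 87.9 and 98.7 CPM in Molm-14 KO. Its log2 fold changes of -0.52 (SE 0.33) and 0.28 (SE 0.27) had wide 95% intervals, from -1.16 to 0.12 and from -0.25 to 0.81, at its low counts.

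The arms with the most counts did not pass in either line. hsa-miR-20a-5p was at 17288, 17003 and 23177 CPM in MV4-11 KO and at 49839, 48881 and 50251 CPM in Molm-14 KO, and hsa-miR-17-5p was at 12091, 11677 and 14407 CPM and at 29817, 29927 and 31806 CPM. MV4-11 KO replicate 3 was within the range of the EV libraries for both arms, and the other 2 KO libraries were below it. The log2 fold change of hsa-miR-20a-5p was -0.20 (SE 0.13, 95% interval -0.45 to 0.05) in MV4-11 and 0.13 (SE 0.13, -0.12 to 0.37) in Molm-14. That of hsa-miR-17-5p was -0.22 (SE 0.11, -0.44 to -0.01) and 0.13 (SE 0.11, -0.09 to 0.35). The intervals are normal approximations, and by edgeR's test hsa-miR-17-5p in MV4-11 had an unadjusted p of 0.0562 (adjusted p = 0.382).

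For hsa-miR-92a-3p the KO libraries were at 3573, 2915 and 3329.7 CPM in MV4-11, against 4155, 3057 and 3019 CPM in EV. In Molm-14 they were at 6040.2, 5351 and 6477 CPM, against 6587, 4476 and 6134 CPM. The groups overlapped in both lines, with log2 fold changes of -0.06 (SE 0.14) and 0.06 (SE 0.14). hsa-miR-17-3p was at 122, 137 and 157 CPM in MV4-11 EV and at 132, 155 and 122 CPM in KO. In Molm-14 it was at 264, 292 and 262 CPM in EV and at 321, 344 and 315 CPM in KO (log2 fold change 0.26, SE 0.11, 95% interval 0.04 to 0.48, edgeR adjusted p = 0.173). Every KO library there lay above every EV library, as for 12.3% of all miRNAs tested.

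The effects of the deletion were then compared between the lines within the same fit. In the difference, the Molm-14 effect minus the MV4-11 effect, 2 of the 8 arms passed, both with a positive sign, beside 6.68% of all miRNAs tested and 2.43% with that sign. The difference was 0.43 (SE 0.13, 95% interval 0.19 to 0.68, edgeR adjusted p = 0.0378) for hsa-miR-18a-5p and 0.60 (SE 0.18, 95% interval 0.25 to 0.95, edgeR adjusted p = 0.0427) for hsa-miR-19a-3p. It was above 0 for 7 of the 8 arms, with a median of 0.34 against -0.00 for all miRNAs, of which 49.9% were above 0, and was -0.18 (SE 0.14) for hsa-miR-18a-3p. Both calls lie near the threshold. That of hsa-miR-18a-5p was lost in 10 of 12 fits that each left out 1 library, with adjusted p-values up to 0.132 (kept without MV4-11 EV replicate 3 or KO replicate 2), and that of hsa-miR-19a-3p in 9 of 12, with adjusted p-values up to 0.123 (kept without MV4-11 EV replicate 3, MV4-11 KO replicate 1 or Molm-14 EV replicate 3), while the sign held in every fit.

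The stoichiometry of the cluster did not pass a test for the deletion. Over both lines, 0 of 8 shares and 0 of 7 ratios passed for MPC1 KO against EV (exact permutation tests), with 0 of 8 and 0 of 7 at an unadjusted p below 0.05. The shares of hsa-miR-20a-5p and hsa-miR-17-5p differed by 0.996-fold and 0.991-fold between genotypes. The largest difference in a share over both lines was that of hsa-miR-18a-3p, 0.890-fold (exact permutation p = 0.13, adjusted p = 0.347). It pools 1.07-fold in MV4-11 (exact permutation p = 0.3) and 0.740-fold in Molm-14 (p = 0.1, the smallest possible). The share of hsa-miR-19a-3p was 0.964-fold in MV4-11 and 1.15-fold in Molm-14 (exact permutation p = 0.7 and 0.1). The ratio of hsa-miR-20a-5p to hsa-miR-19a-3p was 1.04-fold in MV4-11 and 0.860-fold in Molm-14 (exact permutation p = 0.1 in Molm-14). With a smallest p of 0.1, no test within 1 line could pass. Without MV4-11 KO replicate 3, the ratio of hsa-miR-20a-5p to hsa-miR-19a-3p passed, at -0.20 on the log2 scale (exact permutation p = 0.005, adjusted p = 0.0175).

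Within a group, libraries did not deviate in the same way for all arms. As deviations of log2 CPM from the group mean, hsa-miR-17-5p had the same sign as hsa-miR-20a-5p in 11 of 12 libraries and hsa-miR-92a-3p in 10. hsa-miR-93-5p, which has the same seed but comes from the miR-106b-25 cluster on another chromosome, had the same sign in all 12. hsa-miR-17-3p, which shares its hairpin with hsa-miR-17-5p, had the same sign in 1 of 12, and hsa-miR-106b-5p, which has the same seed and lies beside hsa-miR-93-5p, in 3. These counts are a description of 12 libraries that share scaling factors. The deviations of the summed level, -0.23 in Molm-14 EV replicate 2 and 0.20 in MV4-11 KO replicate 3, are of the size of the KO differences given above. The part of this variation in the KO comparisons was not tested.

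**Figure D4:**
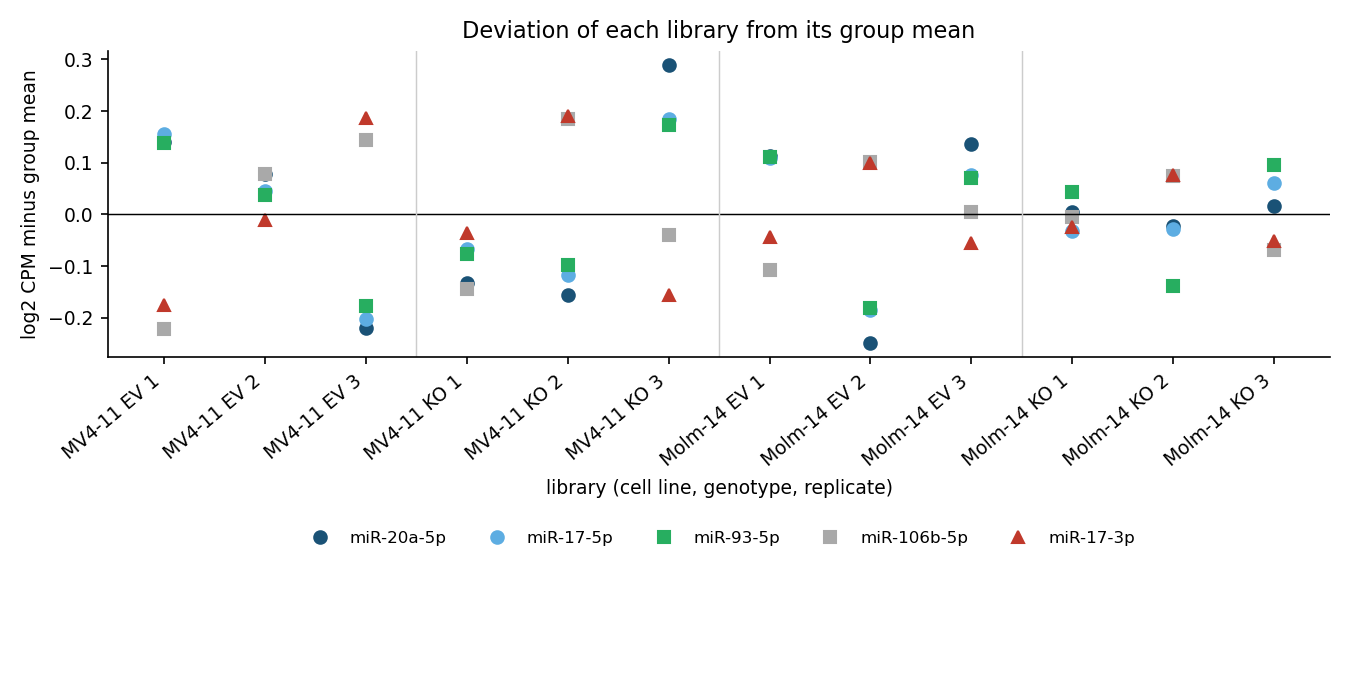
Deviation of log2 CPM from the mean of the group for 5 miRNAs in each of the 12 libraries, with vertical lines between groups. hsa-miR-20a-5p, hsa-miR-17-5p and hsa-miR-93-5p lay on the same side of 0 in all libraries but Molm-14 KO replicate 1, where hsa-miR-17-5p was on the other side, and hsa-miR-17-3p lay opposite to hsa-miR-20a-5p in 11 of 12.

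The part of the followed arms in the counts of each seed differed. Of the miRNAs with the seed of hsa-miR-17-5p and hsa-miR-20a-5p, 6 were counted, the others being hsa-miR-93-5p and hsa-miR-106b-5p of the miR-106b-25 cluster and hsa-miR-20b-5p and hsa-miR-106a-5p of the X cluster. Together the 6 reached 50687 CPM ± 5795 in MV4-11 EV, 45109.6 ± 6126 in MV4-11 KO, 88232 ± 10735 for Molm-14 EV and 94728 ± 2528 for Molm-14 KO (SD, n = 3 each). The 2 members of the miR-17-92 cluster gave 72.8% ± 0.932 and 70.6% ± 1.36 of this in MV4-11 and 83.2% ± 0.690 and 84.6% ± 0.646 in Molm-14. That share was higher in Molm-14 in each of the 6 libraries (log2 difference 0.23, exact permutation p = 0.005, adjusted p = 0.02 over 4 comparisons). hsa-miR-93-5p, the next most abundant miRNA of the seed, was not called between the lines (log2 fold change 0.10, SE 0.11, 95% interval -0.12 to 0.31, edgeR adjusted p = 0.460).

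By counts, hsa-miR-92a-3p was a smaller part of its seed. Its counts do not separate the chromosome 13 and X loci. The part that the counting of reads with several matches plays in its share was not tested. Of 5 counted miRNAs with this seed, hsa-miR-25-3p of the miR-106b-25 cluster was the most abundant, at 23532 CPM in MV4-11 EV and 30351 in Molm-14 EV. hsa-miR-92a-3p gave 11.4% ± 2.36 of the family in MV4-11 EV, 9.88% ± 0.789 in MV4-11 KO, 14.04% ± 2.59 for Molm-14 EV and 16.2% ± 1.35 for Molm-14 KO (SD, n = 3 each). The share was higher in Molm-14 by 0.51 on the log2 scale (exact permutation p = 0.01, adjusted p = 0.02). The seed of hsa-miR-19a-3p and hsa-miR-19b-3p and those of hsa-miR-17-3p and hsa-miR-18a-3p were held by no other counted miRNA. For KO against EV over both lines, the 2 family shares differed by -0.01 and 0.02 on the log2 scale (exact permutation p = 0.54 and 0.875), values that pool opposite signs. In MV4-11 the differences were -0.045 for the family of hsa-miR-17-5p and hsa-miR-20a-5p and -0.19 for that of hsa-miR-92a-3p, and in Molm-14 they were 0.025 and 0.22. Only the share of the first family in Molm-14 did not overlap between KO and EV, with every KO library higher (exact permutation p = 0.1, the smallest possible).

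**Figure D5:**
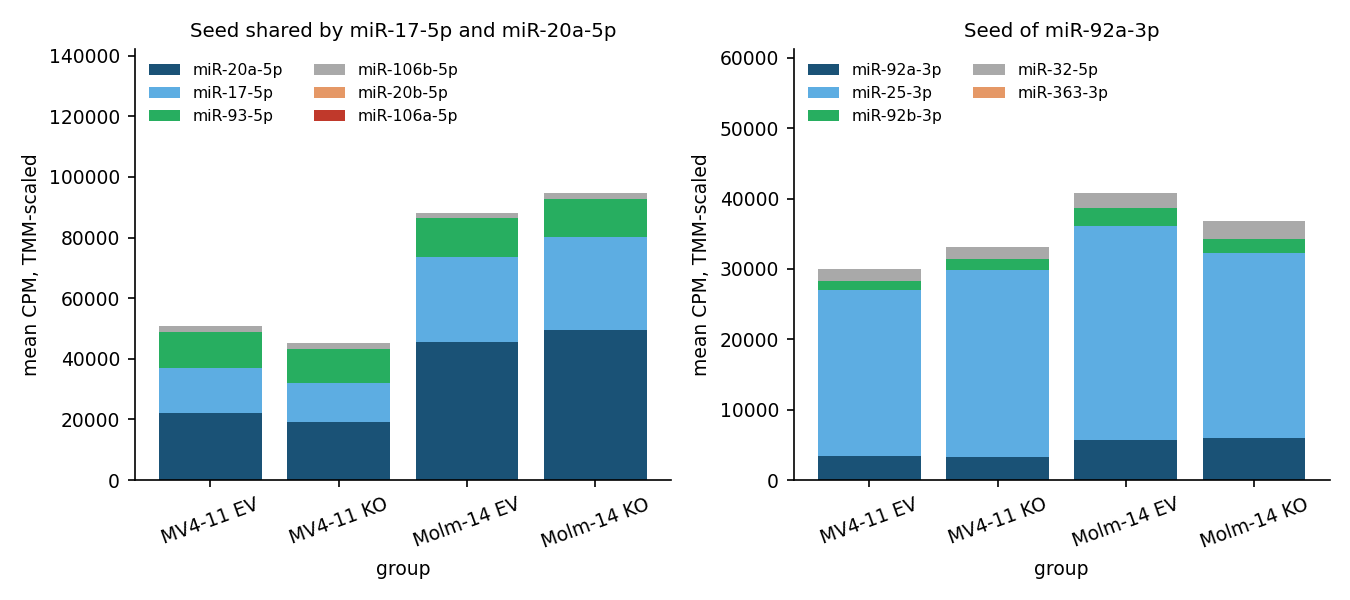
Mean CPM of the counted miRNAs that share a seed, stacked by miRNA for the 4 groups, for the seed of hsa-miR-17-5p and hsa-miR-20a-5p (left) and that of hsa-miR-92a-3p (right). The miR-17-92 arms, at the foot of each stack, made up between 70.6% and 84.6% of the left family and between 9.88% and 16.2% of the right one. Counts of hsa-miR-92a-3p do not separate its loci.

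The paralogous clusters are given beside the KO values. Of the 6 arms of miR-106b-25 all were tested and 0 passed for MPC1 KO in either line, with medians of 0.12 in MV4-11 and -0.17 in Molm-14. Of the miR-106a-363 arms 3 were tested and 0 passed, with medians of -0.12 and 0.16. Over all miRNAs tested, 3.03% passed in MV4-11 and 6.83% in Molm-14, so 0 calls among so few arms do not set them apart. Between the EV controls 3 of the 6 arms of miR-106b-25 were called higher in Molm-14, beside 33.5% of all miRNAs tested, with a median over the 6 of 0.27.

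Outside the cluster, the miRNAs whose pattern was most like the summed level of the 8 arms were found by the root mean square difference of centred log2 CPM over the 12 libraries, among 158 miRNAs with a mean of at least 100 CPM. They were hsa-miR-660-5p (0.141), hsa-miR-7974 (0.155), hsa-miR-16-2-3p (0.169), hsa-miR-505-3p (0.198) and hsa-miR-342-3p (0.199). By the same measure hsa-miR-17-5p was at 0.0264 and hsa-miR-20a-5p at 0.0597, both of which dominate the sum, and hsa-miR-18a-5p at 0.171. The remaining arms were further from the sum than each of the 5 miRNAs above. hsa-miR-18a-3p and hsa-miR-92a-3p were at 0.207, hsa-miR-19a-3p at 0.244, hsa-miR-17-3p at 0.250 and hsa-miR-19b-3p at 0.656. The 5 miRNAs outside the cluster were chosen for this pattern, and no comparison of them between groups is given.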

How the data were processed

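MV4-11 and Molm-14 small RNA libraries (3 EV and 3 MPC1 KO of each line) were prepared by the authors with the NEBNext small RNA kit from miRNeasy RNA. The deposited table holds raw counts per mature miRNA, without normalization, and the submitters' processing notes name STAR 2.5.2, featureCounts 1.5.1 and GRCh38. The paper's methods name other versions of STAR and featureCounts, and which versions made these counts is not stated. Whether multiply matching reads were kept is not given in the sources used here.

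From the counts, edgeR 4.0.16 in R 4.3.3 was run on all 12 libraries with filterByExpr (minimum count 10), TMM and a robust quasi-likelihood fit of 4 group means. It was checked on simulated counts. P-values were adjusted by Benjamini-Hochberg over 659 miRNAs with a threshold of 0.05. CPM are TMM-scaled. Total counts of 3870104 to 8683456 limit precision most for hsa-miR-19b-3p and hsa-miR-19a-5p among the arms followed. Summed levels, shares and 7 ratios were compared by exact two-sided permutation within strata. The alternatives were DESeq2 1.42.0, limma-voom (limma 3.58.1), other scalings and filters, each line alone, a replicate block and leaving out each library. Mature sequences from RefSeq were matched to GRCh38, with MIR17HG transcripts from GENCODE 44. The text names the 8 arms, the other arms of their hairpins, the paralogous clusters, miRNAs of the same seeds, marker miRNAs and the 5 most alike miRNAs. Members and lists were chosen with earlier results of these data known.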

Additional observations from a re-analysis of the deposited data

Results flagged for a closer look

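The effect of MPC1 deletion differed between the lines for 2 of the 8 arms in edgeR's interaction contrast, beside 6.68% of all miRNAs tested and 2.43% with that sign. For hsa-miR-18a-5p the log2 fold change was -0.31 in MV4-11 and 0.12 in Molm-14, a difference of 0.43 (SE 0.13, adjusted p = 0.0378). For hsa-miR-19a-3p it was -0.26 and 0.34, a difference of 0.60 (SE 0.18, adjusted p = 0.0427). Neither arm passed within a line, and the calls were lost in 10 of 12 and 9 of 12 fits that left out 1 library.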

How the results depend on the processing

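Depth limits hsa-miR-19b-3p (65 to 479 counts) and the 3 libraries per group limit every KO comparison. The number of arms called between the EV controls was 8, and 7 under upper-quartile scaling. For MPC1 KO in MV4-11, 1 arm (hsa-miR-18a-5p) instead of 0 passed under upper-quartile factors, under TMM without the 3 clusters, with a mean of at least 100 counts and by DESeq2, and 0 to 1 passed when single libraries were left out (1 without MV4-11 KO replicate 2). In Molm-14, 1 arm instead of 0 passed without a filter on low counts (hsa-miR-19a-3p), with a mean of at least 100 counts (hsa-miR-18a-3p) and with the replicate block (hsa-miR-19a-3p), and 0 to 1 when libraries were left out (1 without Molm-14 EV replicate 3). For the difference between the lines, 1 arm instead of 2 passed under RLE factors, total counts, no filter and the replicate block (hsa-miR-19a-3p in each), 3 passed under upper-quartile factors (hsa-miR-17-5p added, adjusted p = 0.0491), and 0 to 2 when libraries were left out. The cause of these changes was not tested. The KO difference of the summed level over both lines, -0.03, was 0.015 by total counts and between -0.091 and 0.0053 with libraries left out. The number of shares called between the lines, 3, was 0 with the geometric mean of the 6 arms with 1 copy, 0 to 3 with libraries left out, and 0 with the replicate block. There, 6 pairs allow no p below 0.03125, so a single share at that value cannot pass over 16 comparisons. With libraries left out, 0 to 1 ratio passed for KO and 0 to 4 between the lines (4 without MV4-11 KO replicate 3). Correlations of same-numbered deviations were between -0.13 and 0.12, and those of differently numbered ones between -0.14 and 0.20. With 3 libraries per group they cannot decide whether the replicate numbers pair the libraries. Beyond the changes given above, the block changed no call of the 8 arms. Signs near 0 turned as follows. By total counts the MV4-11 KO values of hsa-miR-17-3p and hsa-miR-92a-3p were 0.045 and 0.017, by upper-quartile factors the difference for hsa-miR-18a-3p was 0.0035, and with the 6-arm mean the shares of hsa-miR-17-5p, hsa-miR-17-3p and hsa-miR-18a-5p between the lines were 0.053, 0.086 and 0.00082. With libraries left out, the MV4-11 KO values ran from -0.14 to 0.067 for hsa-miR-17-3p and from -0.15 to 0.099 for hsa-miR-92a-3p, whose Molm-14 value ran from -0.066 to 0.18 and whose difference ran from -0.070 to 0.24. The KO shares ran from -0.064 to 0.019 for hsa-miR-17-5p, -0.14 to 0.090 for hsa-miR-19b-3p and -0.082 to 0.044 for hsa-miR-20a-5p, and the share of hsa-miR-17-3p between the lines from -0.12 to 0.034. The KO ratios ran from -0.024 to 0.018 for hsa-miR-17-5p to hsa-miR-20a-5p, -0.027 to 0.11 for hsa-miR-17-5p to hsa-miR-18a-5p and -0.20 to 5.0e-05 for hsa-miR-20a-5p to hsa-miR-19a-3p, and the ratios between the lines from -0.13 to 0.052 for hsa-miR-17-5p to hsa-miR-17-3p and -0.0091 to 0.13 for hsa-miR-17-5p to hsa-miR-18a-5p. Upper-quartile factors moved the median of all miRNAs by -0.18 between the EV controls and by 0.18 in the difference, and took the percent of called miRNAs that were higher from 65.0 to 40 in MV4-11 KO, from 40 to 56.6 in Molm-14 KO and from 36.4 to 70.5 in the difference. Total counts gave 76.9 and TMM without the 3 clusters 50.0 percent higher in MV4-11 KO. Over all miRNAs tested, 20 calls in MV4-11 KO became 31 by DESeq2, 408 between the EV controls became 212 with a mean of at least 100 counts, where fewer miRNAs were tested, and with libraries left out the calls numbered 12 to 38 in MV4-11 KO (12 without MV4-11 KO replicate 1, 38 without Molm-14 EV replicate 2) and 22 to 53 instead of 44 in the difference (22 without MV4-11 KO replicate 3).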
